A study of Mus musculus with 6 samples.

Results

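The glutathione S-transferase, UDP-glucuronosyltransferase and sulfotransferase genes were examined in the colon of mice that were obesity-prone (OP) or obesity-resistant (OR). Members were chosen by gene symbol alone: cytosolic glutathione S-transferases of the alpha, kappa, mu, omega, pi and theta classes (*Gsta*, *Gstk*, *Gstm*, *Gsto*, *Gstp*, *Gstt*), microsomal glutathione S-transferases (*Mgst*), UDP-glucuronosyltransferases (*Ugt1a*, *Ugt2a*, *Ugt2b*) and cytosolic sulfotransferases (*Sult*). The rule found 49 of the 17778 genes listed: 21 cytosolic GST, 3 *Mgst*, 16 *Ugt* and 9 *Sult* genes. Of these, 38 reached an FPKM (fragments mapped to a transcript, scaled by its length and the size of the library) of at least 0.5 in at least 3 mice and were tested, among 13520 genes tested in all.

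RNA-seq was performed on whole colon tissue of 3 OP mice and 3 OR mice, each a sample of its own. All 6 mice were wild-type male C57BL/6J mice fed a high-fat diet for 16 weeks, up to an age of 21 weeks. OP mice were taken from those that gained most weight and OR mice from those that gained least, so the groups differ by outcome and not by an assigned treatment. No mouse on a control diet was in this comparison, and bulk tissue does not tell fewer cells of a type from less RNA per cell.

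These enzymes attach a polar group to a reactive or fat-soluble compound so that it can leave the cell. Glutathione S-transferases (GSTs) add the tripeptide glutathione, UDP-glucuronosyltransferases (UGTs) add glucuronic acid from UDP-glucuronate, and sulfotransferases (SULTs) add sulfate from the donor PAPS. In the gut epithelium they act on drugs, food constituents and microbial products, and on endogenous compounds such as bile acids, bilirubin, steroids and oxidised lipids. The transcription factors NRF2, which responds to oxidants, and AHR, which responds to aromatic ligands, are known to induce many of them.

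The 6 libraries were alike in total but not in makeup. Summed FPKM values lay between 585350 and 600028, and 16287 to 16619 genes had a value above 0. The depth is unknown, because FPKM carries no read totals. *Epcam* and *Cdx2*, which mark intestinal epithelium, lay at 935 to 1188 and 179.5 to 246 FPKM, respectively, so the labelled tissue matched its epithelial markers. Albumin, the defining hepatocyte gene, was at 0.07 to 0.72 FPKM. The other hepatocyte markers listed, *Ttr*, *Apoa2* and *Tat*, reached 9.03, 3.09 and 31.3 FPKM, respectively. OP mouse 1 stood apart: it was the lowest of the 6 mice in 54.1% of all genes tested and received a sample weight of 0.332 in limma, against 0.640 to 2.21 in the other mice. *Muc2*, the main goblet cell mucin, was at 17.6, 563 and 188 FPKM in OP mice 1, 2 and 3 and at 154, 276 and 933 FPKM in OR mice 1, 2 and 3. *Car1*, a carbonic anhydrase of proximal colonocytes, was at 14584, 1054 and 4836 FPKM in OP mice and 5255, 15723 and 6339 FPKM in OR mice. *Aqp8*, another colonocyte marker, was at 1060, 1084 and 39.4 FPKM in OP mice and 10.1, 358 and 25.3 FPKM in OR mice. *Muc2*, *Car1* and *Aqp8* thus varied widely within both groups. OP mouse 1 and OR mouse 2 were high in both colonocyte genes, whereas OP mouse 2 was lowest in *Car1* and highest in *Aqp8*.

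Between OP and OR mice, 0 of the 38 members tested passed the thresholds of the study (a q-value below 0.2 and a fold change of 1.2 or more, or 0.83 or less) in limma-trend with Benjamini-Hochberg adjustment over all genes tested. The same thresholds were passed by 0% of all genes higher and 0.0222% (3 genes) lower in OP mice. Unadjusted p-values below 0.05 were found for 2 members lower in OP mice, *Mgst1* and *Ugt1a6a*, and for 0 members higher, where 3.53% of all genes were lower and 0.503% higher by that rule. The same 2 members were the only ones tested whose OP values all lay below their OR values, against 6.81% of all genes. In 0 members tested did all OP values lie above all OR values, against 1.63%. The q-values of the members lay between 0.945 and 0.984.

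Of the members tested, 28 had a negative log2 fold change (OP minus OR) and 10 a positive one, and the median was -0.19. Over all genes tested, 70.1% were negative and the median was -0.10. With median-of-ratios scaling between mice, the split of the members became 24 to 14, and its median -0.07, while over all genes 48.5% were negative and the median was 0.01. Without OP mouse 1 the members split 27 to 11 with a median of -0.07, and over all genes 52.6% were negative with a median of -0.01. The 95% intervals of 36 of the 38 log2 fold changes covered 0, and 25 of the 38 lay entirely between -1 and 1. The median standard error was 0.26, and 31 members had an estimate smaller than 0.5 in size.

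**Figure D1:**
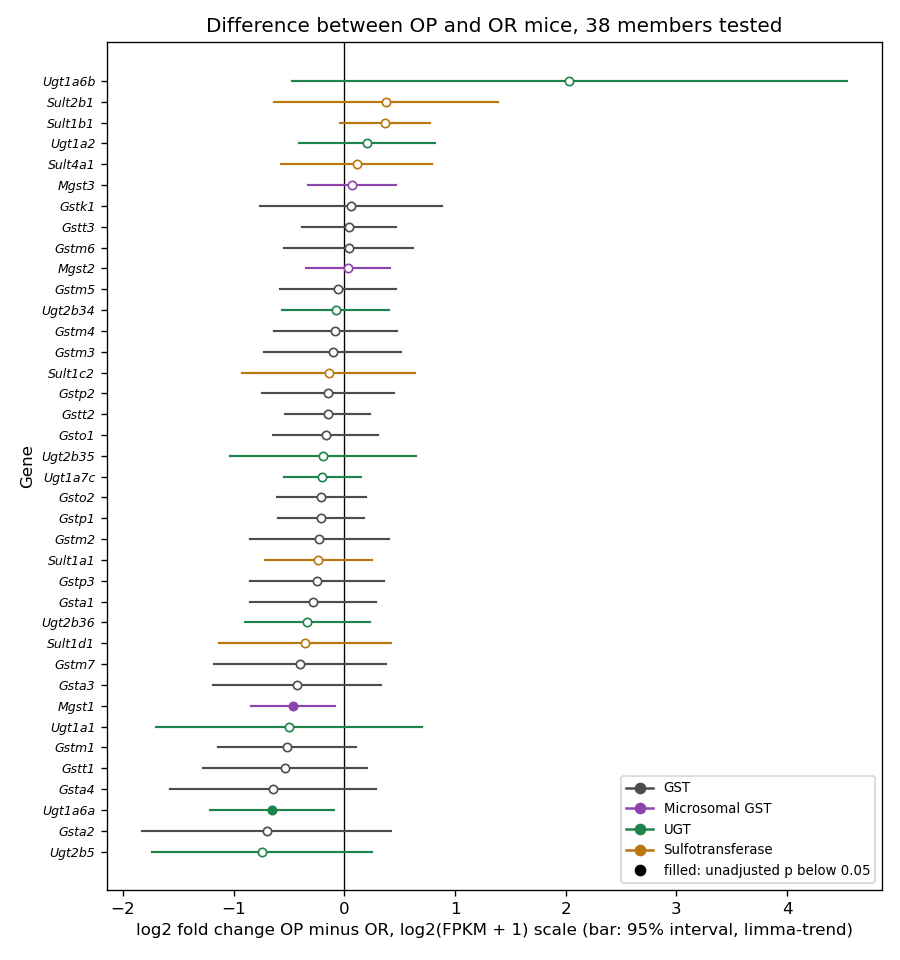
Log2 fold change (OP minus OR, on the log2(FPKM + 1) scale) of the 38 members tested, by gene; points are limma-trend estimates from 3 mice per group, bars are 95% intervals and colours are the enzyme families. The intervals of *Mgst1* and *Ugt1a6a* (filled points) lie below 0, the interval of *Ugt1a6b* is the widest, and 36 of 38 cover 0.

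The level of these genes was high, and it was concentrated. As a mean over the 6 mice, 11 members were at 100 FPKM or more, 15 at 10 to 100, 10 at 1 to 10, and 13 below 1. The 5 highest members held 55.5% of the summed mean FPKM of all 49. All members together summed to 3688, 3322 and 4140 FPKM in OP mice and 4211, 4219 and 3947 FPKM in OR mice, which is 0.568% to 0.716% of the total of a mouse. OP mouse 3 lay above OR mouse 3, so the groups overlapped, with a two-sided exact permutation p = 0.2 (n = 3 per group).

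**Figure D2:**
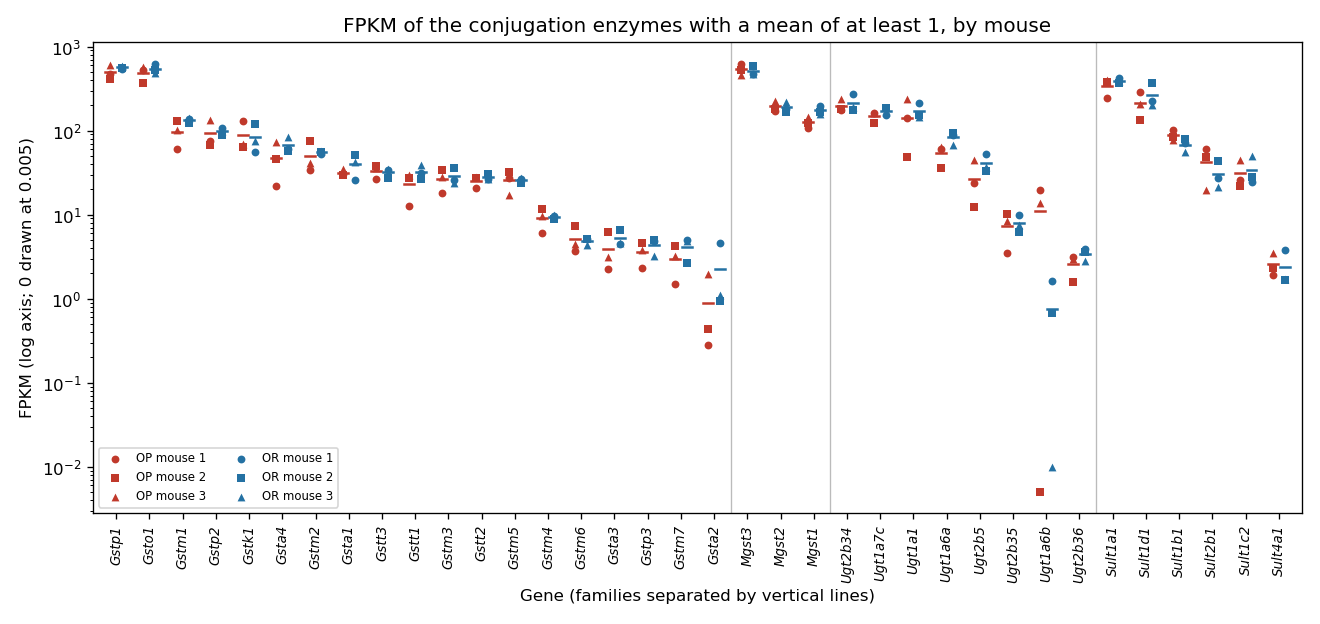
FPKM (log axis) in each of the 6 mice of the 36 members with a mean of at least 1, ordered by family and mean level; symbols are single mice, horizontal bars are group means, and a value of 0 is drawn at 0.005. *Gstp1*, *Mgst3* and *Gsto1* lie highest with means above 500 FPKM, and *Ugt1a6b* is the member with the widest spread between mice.

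The cytosolic GSTs were led by *Gstp1*, the pi-class enzyme common in epithelia, and *Gsto1*, an omega-class enzyme with thiol transferase activity. *Gstp1* was at 466, 417 and 596 FPKM in OP mice and at 544, 559 and 589.8 FPKM in OR mice. *Gsto1* was at 528, 368 and 569 FPKM in OP mice and at 619.8, 522 and 486 FPKM in OR mice. In both genes OP mouse 2 was the lowest of the 6 mice and the groups overlapped. The log2 fold changes were -0.21 (standard error 0.17) for *Gstp1* and -0.17 (standard error 0.20) for *Gsto1*, and that of *Gsto1* was 0.02 without OP mouse 2. Of the *Gstp1* transcript, 62.3% of the 50-base stretches also occur in *Gstp2*, so the split of reads between them is uncertain. Their sum was 585.5 ± 128.8 FPKM (SD, n = 3) in OP mice and 662.6 ± 22.3 FPKM (SD, n = 3) in OR mice. The groups overlapped in it, with an exact permutation p = 0.4.

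*Gstm1*, the most abundant of the mu-class enzymes, had 59.9, 131 and 101 FPKM in OP mice and 136, 122 and 142 FPKM in OR mice. OP mouse 1 was lowest, but OP mouse 2 lay within the OR range. Its log2 fold change was -0.52 (standard error 0.27), with an unadjusted limma-trend p of 0.0910. Single OP mice decided its size: the estimate was -0.77 (unadjusted limma-trend p 0.0124) without OP mouse 2 and -0.21 (unadjusted limma-trend p 0.226) without OP mouse 1. The 7 mu-class genes varied most among the OP mice: 6 of the 7 were lowest in OP mouse 1, and 4 of the 7 were highest in OP mouse 2. Over all genes tested, OP mouse 1 was lowest in 54.1% and OP mouse 2 highest in 13.1%. Over the 38 members tested, OP mouse 1 was lowest in 16 (42.1%) and OP mouse 2 highest in 6. The summed level of the mu-class genes was 151, 296 and 204 FPKM in OP mice and 261, 255 and 269 FPKM in OR mice, so the spread among OP mice covered the whole OR range. Their median log2 fold change was -0.11, and 0.02 with median-of-ratios scaling.

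The alpha-class enzymes, which act on products of lipid peroxidation among other substrates, had negative estimates in 4 of 4 genes, with a median of -0.54 (-0.42 with median-of-ratios scaling and -0.23 without OP mouse 1). None of the 4 passed, and in all 4 the groups overlapped. *Gsta4*, known for conjugating the lipid aldehyde hydroxynonenal, was at 22.1, 46.2 and 73.4 FPKM in OP mice and 60.3, 58.0 and 84.5 FPKM in OR mice, so that OP mouse 1 was lowest and OP mouse 3 lay inside the OR range. *Gsta2* had the most negative estimate among the GSTs, -0.70 (standard error 0.48), at low levels of 0.28, 0.43 and 1.94 FPKM in OP mice and 4.63, 0.95 and 1.11 FPKM in OR mice. OR mouse 1 was the highest, and without it the estimate was -0.21, whereas without OP mouse 3 it was -1.08. Of the *Gsta1* and *Gsta2* transcripts, 44.6% and 44.8% of the 50-base stretches also occur in the other, so the split of reads between them is uncertain.

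*Gstk1*, the kappa-class enzyme of mitochondria and peroxisomes, had the most positive estimate of the GSTs, at 0.06 (standard error 0.35). Its values were 131, 63.3 and 70.2 FPKM in OP mice and 56.2, 121 and 75.5 FPKM in OR mice. OP mouse 1 and OR mouse 2 were high and the other 4 mice low, and the estimate turned to -0.26 without OP mouse 1. Over all 20 cytosolic GSTs tested, 17 estimates were negative and 3 positive, with a median of -0.21 that became -0.08 with median-of-ratios scaling. The summed level of the family was 1548 ± 209 FPKM (SD, n = 3) in OP mice and 1764 ± 16.1 FPKM (SD, n = 3) in OR mice, with overlap and an exact permutation p = 0.4. The OR mice were close to each other, and the OP mice were not.

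Microsomal GSTs are membrane enzymes that also reduce lipid hydroperoxides. *Mgst1* was at 107, 125 and 147 FPKM in OP mice and at 199, 168 and 156 FPKM in OR mice. Every OP mouse was below every OR mouse, and the gap between OP mouse 3 and OR mouse 3 was small. The means were 126 ± 19.96 FPKM (SD, n = 3) and 174 ± 22.1 FPKM (SD, n = 3), a log2 fold change of -0.46 (standard error 0.16, unadjusted p = 0.0225 and q-value 0.945 by limma-trend). The two-sided exact permutation p was 0.1, the smallest that 3 mice against 3 can give. Leaving out single mice gave estimates between -0.58 and -0.35, and the unadjusted limma-trend p rose to 0.0624 without OP mouse 1 and 0.0895 without OR mouse 1. With median-of-ratios scaling the estimate was -0.33.

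The other members of that family had estimates near 0. *Mgst3* was at 624, 533 and 459 FPKM in OP mice and 471, 587 and 475 FPKM in OR mice. *Mgst2*, which can make leukotriene C, was at 173, 183 and 228 FPKM in OP mice and 182, 168 and 221 FPKM in OR mice. Both sets of values overlapped fully, with log2 fold changes of 0.07 (standard error 0.17) and 0.03 (standard error 0.16), and the sign of each turned when single mice were left out. The 95% intervals, -0.33 to 0.47 and -0.35 to 0.41, leave room for modest differences either way. The summed *Mgst* level was 859.6 ± 38.7 FPKM (SD, n = 3) in OP mice and 876 ± 41.2 FPKM (SD, n = 3) in OR mice.

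The *Mgst1* transcript compared shares no 50-base stretch with that of another member, so between these transcripts its value does not depend on splitting reads. Only a single transcript per gene was compared. Promoter windows of 300 bases, ending 50 bases after the start, are shown for *Mgst1* and *Ugt1a6a*, the 2 members tested whose groups did not overlap (RefSeq, GRCm38.p6, plus strand, chr6:138140277-138140576 and chr1:88134559-88134858). Capitals in the *Mgst1* window mark a match to TGACNNNGC, the core letters of the NRF2 element, on the minus strand at position -56 from the start.
Mgst1 promoter: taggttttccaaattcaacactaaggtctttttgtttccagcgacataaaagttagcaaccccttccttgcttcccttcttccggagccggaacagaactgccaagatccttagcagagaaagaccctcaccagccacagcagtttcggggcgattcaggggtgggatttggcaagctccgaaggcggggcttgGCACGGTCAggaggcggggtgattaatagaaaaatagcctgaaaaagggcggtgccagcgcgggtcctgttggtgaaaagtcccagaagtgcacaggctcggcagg
Ugt1a6a promoter: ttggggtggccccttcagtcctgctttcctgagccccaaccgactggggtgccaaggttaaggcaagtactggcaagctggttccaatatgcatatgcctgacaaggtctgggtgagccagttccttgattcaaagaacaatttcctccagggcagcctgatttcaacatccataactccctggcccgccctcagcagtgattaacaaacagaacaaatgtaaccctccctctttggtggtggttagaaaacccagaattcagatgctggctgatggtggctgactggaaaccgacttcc
Neither the *Ugt1a6a* window nor a second *Mgst1* window in the table (chr6:138141337-138141636) holds that motif or GCGTG, the core of the AHR element.
A promoter window was found for 45 of the 49 members. TGACNNNGC on either strand occurred in 4 of the 45 (8.89%; *Gsta3*, *Gstm5*, *Gstm7* and *Mgst1*), against 13.99% of 27025 genes. GCGTG occurred in 11 of the 45 (24.44%), against 35.15% of all genes, and in *Gstm5* the matches to the 2 motifs overlap. A match is a run of letters in a window and not an observed binding site.

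The UGT genes are organised differently. The 7 *Ugt1a* members arise from a single locus in which each gene has its own first exon and all share the exons that follow. In GENCODE transcripts of GRCm38, the coding part after the first coding exon was 735 bases long and a single sequence in all 7. The first coding exons were 55.4% to 81.4% identical between members, except for *Ugt1a6a* and *Ugt1a6b*, at 97.0% with 26 differing bases of 858. Of the *Ugt1a6a* transcript, 80.6% of the 50-base stretches also occur in another member, and of *Ugt1a6b* 80.7%. The most divergent stretch of 150 bases, bases 211 to 360 of the first coding exon, is shown because the 2 coding sequences differ only in that exon, and capitals mark the 16 bases that differ (plus strand, GRCm38, chr1:88138684-88138833 for *Ugt1a6a* and chr1:88107152-88107301 for *Ugt1a6b*).
Ugt1a6a: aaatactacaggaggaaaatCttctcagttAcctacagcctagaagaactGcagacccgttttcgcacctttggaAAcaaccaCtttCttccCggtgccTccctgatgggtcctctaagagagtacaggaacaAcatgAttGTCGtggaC
Ugt1a6b: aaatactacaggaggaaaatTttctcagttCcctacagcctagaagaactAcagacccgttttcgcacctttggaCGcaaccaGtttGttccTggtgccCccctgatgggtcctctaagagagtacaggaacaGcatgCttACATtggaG

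*Ugt1a6a*, an enzyme for planar phenols, was at 60.7, 36.4 and 64.0 FPKM in OP mice and at 89.0, 93.2 and 67.5 FPKM in OR mice. The groups did not overlap, although OP mouse 3 and OR mouse 3 were close. The means were 53.7 ± 15.1 FPKM (SD, n = 3) and 83.2 ± 13.8 FPKM (SD, n = 3), a log2 fold change of -0.65 (standard error 0.24, unadjusted p = 0.0285 and q-value 0.945 by limma-trend, exact permutation p = 0.1). The estimate stayed between -0.80 and -0.40 with each mouse left out. The unadjusted limma-trend p was 0.113 with median-of-ratios scaling, 0.0592 without OP mouse 2, 0.0779 without OR mouse 1 and 0.0865 without OR mouse 2.

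*Ugt1a6b*, its near copy, had a different pattern. It was at 19.6 and 13.7 FPKM in OP mice 1 and 3 and listed at 0 in OP mouse 2. In OR mice it was at 1.61, 0.67 and 0.01 FPKM. A pair of OP mice stood above all OR mice and the third OP mouse below them. Its log2 fold change was 2.03 (standard error 1.07, unadjusted limma-trend p = 0.0970, exact permutation p = 0.4). The estimate was 3.41 without OP mouse 2, 1.23 without OP mouse 1, 1.47 without OP mouse 3 and 1.11 with sample weights. *Ugt1a6b* made up 24.4%, 0% and 17.6% of the summed *Ugt1a6a* and *Ugt1a6b* level in OP mice and 1.78%, 0.71% and 0.01% in OR mice.

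Since the quantification had to divide nearly identical reads between both genes, their sum was examined as well. It was 80.3, 36.4 and 77.7 FPKM in OP mice and 90.6, 93.9 and 67.5 FPKM in OR mice. OP mice 1 and 3 now lay above OR mouse 3, so the groups overlapped. The means were 64.8 ± 24.7 FPKM (SD, n = 3) and 84.0 ± 14.4 FPKM (SD, n = 3), with an exact permutation p = 0.3. The separation of the groups in *Ugt1a6a* was thus not seen in the sum of the pair.

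**Figure D3:**
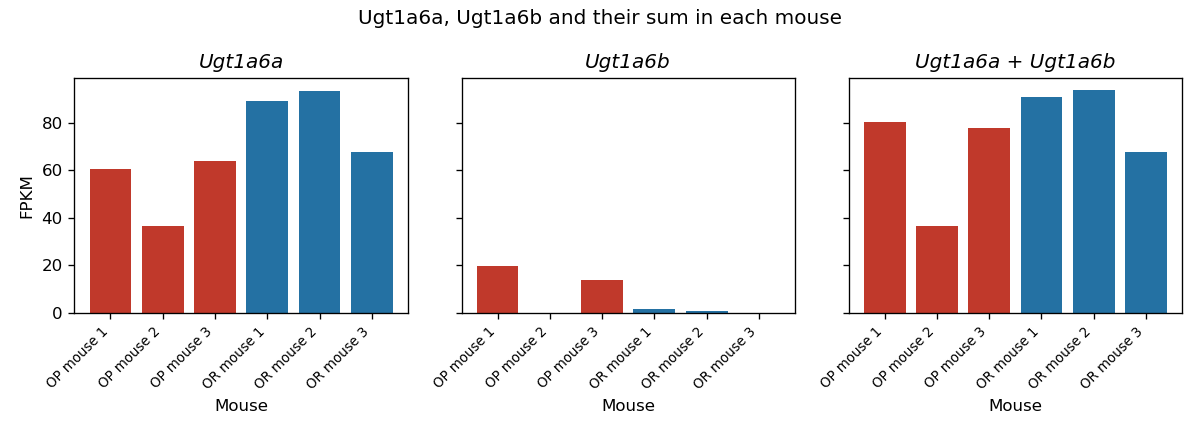
FPKM of *Ugt1a6a*, of *Ugt1a6b* and of their sum in each of the 6 mice (bars start at 0, 1 bar per mouse, red for OP and blue for OR). All OP bars lie below all OR bars for *Ugt1a6a*; the sum overlaps, because OP mice 1 and 3 carry 19.6 and 13.7 FPKM of *Ugt1a6b*.

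*Ugt1a1*, the enzyme that conjugates bilirubin, was at 141, 49.2 and 236 FPKM in OP mice and 212, 152 and 144 FPKM in OR mice. OP mouse 2 was lowest and OP mouse 3 highest, so the OR mice lay inside the OP range. The log2 fold change was -0.50 (standard error 0.51), and it was 0.13 without OP mouse 2 and -0.995 without OP mouse 3. *Ugt1a7c*, an enzyme known from the gut, was steadier, at 160.3, 125 and 160.1 FPKM in OP mice and 154, 186 and 168 FPKM in OR mice, with a log2 fold change of -0.20 (standard error 0.15). All 5 *Ugt1a* genes tested were lowest in OP mouse 2, among them *Ugt1a2*. That mouse was lowest in 12 of the 38 members tested (31.6%) and in 17.2% of all genes. The summed level of the 7 *Ugt1a* members was 356 ± 135 FPKM (SD, n = 3) in OP mice and 424 ± 39.6 FPKM (SD, n = 3) in OR mice (exact permutation p = 0.7).

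Among the *Ugt2b* genes, which act on steroids and bile acids, *Ugt2b34* was by far the most abundant. It was at 177, 182 and 237 FPKM in OP mice and 273, 175 and 189 FPKM in OR mice, with full overlap. Its log2 fold change was -0.08 (standard error 0.21), and 0.06 with median-of-ratios scaling. *Ugt2b5* had the most negative estimate of all members, -0.74 (standard error 0.42, unadjusted limma-trend p = 0.121, exact permutation p = 0.3), from 23.6, 12.2 and 44.4 FPKM in OP mice and 53.0, 32.8 and 36.7 FPKM in OR mice. OP mouse 3 lay inside the OR range, and without it the estimate was -1.19 with an unadjusted limma-trend p of 0.0104. Without OP mouse 2, the lowest of the 6, the estimate was -0.30 with an unadjusted limma-trend p of 0.374. In its transcript 34.8% of 50-base stretches also occur in *Ugt2b38*, which was at most at 0.03 FPKM in any mouse. The 4 *Ugt2b* genes tested had negative estimates with a median of -0.26, and their groups overlapped. The 3 *Ugt2a* genes did not pass the filter.

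**Figure D4:**
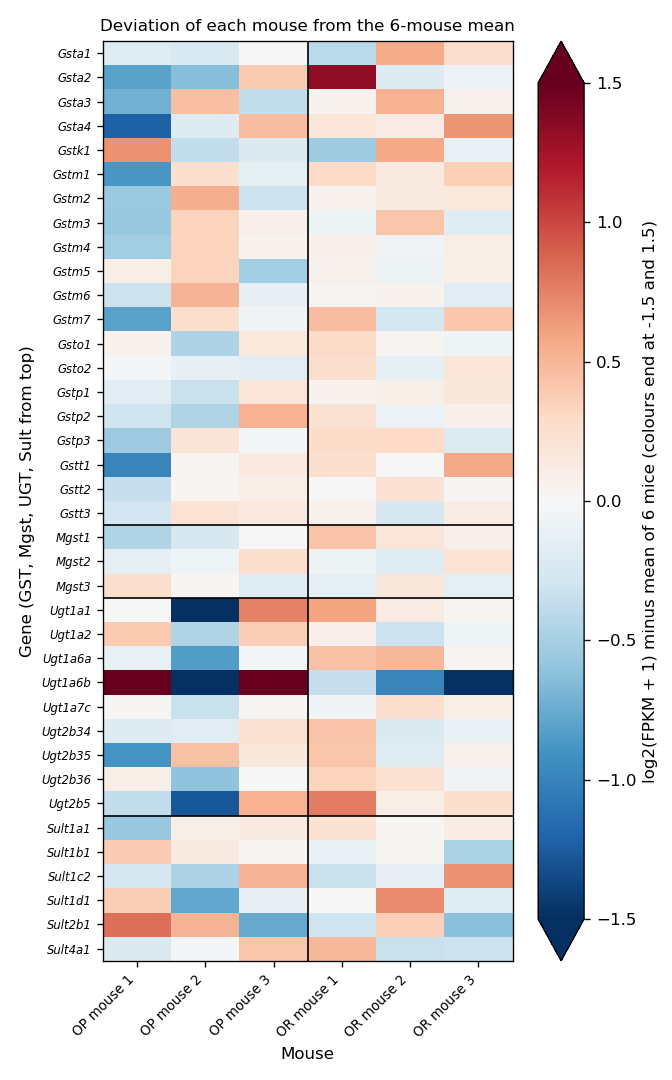
Log2(FPKM + 1) of each mouse minus the average over the 6 mice, for the 38 members tested, with genes in rows by family and mice in columns; red is above and blue below the mean. OP mouse 1 is below the mean in most mu- and alpha-class genes, OP mouse 2 in the *Ugt1a* genes, and none of the 4 families has one colour in all OP mice.

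The sulfotransferases were led by *Sult1a1*, which sulfates phenols, and *Sult1d1*, which sulfates catecholamines and related compounds. *Sult1a1* was at 244, 384 and 398 FPKM in OP mice and 423, 368 and 393 FPKM in OR mice. OP mouse 1 was low and the other 5 mice were close together. *Sult1d1* was at 292, 132 and 207 FPKM in OP mice and 228, 371 and 199.7 FPKM in OR mice, where OR mouse 2 and OP mouse 1 were highest. The log2 fold changes were -0.24 (standard error 0.21) and -0.36 (standard error 0.33), and ranged from -0.36 to -0.01 and from -0.63 to -0.06 when single mice were left out.

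*Sult1b1*, which sulfates thyroid hormones and phenols, came closest to a higher level in OP mice. It was at 101, 84.5 and 78.4 FPKM in OP mice and 70.8, 79.2 and 54.9 FPKM in OR mice, so that OR mouse 2 lay just above OP mouse 3. The log2 fold change was 0.37 (standard error 0.17, unadjusted limma-trend p = 0.0696, exact permutation p = 0.2), and it stayed between 0.22 and 0.48 with each mouse left out. *Sult2b1*, the cholesterol sulfotransferase, had 60.1, 48.0 and 19.4 FPKM in OP mice and 27.1, 43.4 and 21.3 FPKM in OR mice, with a log2 fold change of 0.38 (standard error 0.43). OP mouse 3 was the lowest of the 6, and without it the estimate was 0.85, whereas it was 0.06 without OP mouse 1 and 0.16 without OR mouse 3. Of the 6 sulfotransferases tested, 3 had negative and 3 positive estimates, with a median of -0.02, and the summed level was 717 ± 40.1 FPKM (SD, n = 3) in OP mice and 797 ± 86.7 FPKM (SD, n = 3) in OR mice (exact permutation p = 0.3).

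The 11 members that did not pass the filter were *Gstt4*, *Sult1c1*, *Sult1e1*, *Sult5a1*, *Ugt1a5*, *Ugt1a9*, *Ugt2a1*, *Ugt2a2*, *Ugt2a3*, *Ugt2b1* and *Ugt2b38*. Their highest value in any mouse was 0.69 FPKM, and over all members 12 were listed at 0 in at least 1 mouse. *Sult5a1* was at 0.16, 0 and 0.37 FPKM in OP mice and 0.43, 0.42 and 0.69 FPKM in OR mice, which did not overlap, but all values were near the lower limit of the file. *Sult1e1*, the estrogen sulfotransferase, was listed at 0 in all OP mice and at 0.06 FPKM or less in OR mice.

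Many members lie side by side in the genome. In the RefSeq annotation 40 of the 49 lay in 8 clusters in which neighbours were within 200 kb, and 9 stood alone. The clusters held 7 *Ugt1a*, 7 *Gstm*, 4 *Gstt*, 3 *Gstp*, 3 *Gsta*, 2 *Gsto* and 2 *Sult1c* genes, and a mixed cluster of 12 held the *Ugt2* genes with *Sult1b1*, *Sult1d1* and *Sult1e1*. Within that mixed cluster the estimate of *Sult1b1* was positive, and those of *Sult1d1* and *Ugt2b34* were negative. OP mouse 1 and OR mouse 2, the pair highest in *Car1*, were also highest in *Gstk1*, *Mgst3* and *Sult1d1*. These were 3 of 38 members, against 5.13% of all genes tested, too few to set the members apart. The most frequent highest pair was OP mouse 3 and OR mouse 1, in 8 of 38 members against 21.5% of all genes tested.

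The cosubstrates, transporters and regulators of conjugation were read from lists of other genes, and 0 of these genes passed the q-value threshold. Their splits are to be read beside the 70.1% of all genes tested with a negative estimate. With median-of-ratios scaling the list medians lay between -0.22 (AHR targets) and 0.10 (PAPS supply and return). Of the genes supplying glutathione, 13 were tested, with 8 negative and 5 positive estimates and a median of -0.01. *Gclc*, the catalytic subunit of the first and limiting step of glutathione synthesis, was at 41.5, 29.3 and 49.3 FPKM in OP mice and 34.1, 49.8 and 27.5 FPKM in OR mice. The 5 genes of UDP-glucuronate supply split 3 to 2 with a median of -0.02. *Ugdh*, which makes UDP-glucuronate, was at 351, 268 and 545 FPKM in OP mice and 374, 414 and 361 FPKM in OR mice, with a log2 fold change of -0.04 (standard error 0.25). Its OP values lay on both sides of its OR values.

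The 7 genes of PAPS supply and return split 4 to 3 with a median of -0.03, or 0.10 with median-of-ratios scaling. *Papss2*, a PAPS synthase, was at 289.8, 135 and 182 FPKM in OP mice and 142, 262 and 109.95 FPKM in OR mice, and was again highest in OP mouse 1 and OR mouse 2. Of the genes that remove conjugated groups, 5 of 6 tested were negative (median -0.20), and of the efflux transporters of conjugates 5 of 8 (median -0.11). No member of these lists had an unadjusted p below 0.05.

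The regulator list had 7 negative and 3 positive estimates among 10 tested, with a median of -0.06, or 0.07 with median-of-ratios scaling. *Nfe2l2*, which encodes NRF2, was at 117, 112 and 179.8 FPKM in OP mice and 186, 133 and 179 FPKM in OR mice, a log2 fold change of -0.30 (standard error 0.22) with overlap. Of 15 NRF2 targets outside the enzyme families, 11 were negative and 4 positive, with 0 unadjusted p-values below 0.05. Their median was -0.05, or 0.08 with median-of-ratios scaling. *Nqo1*, a quinone reductase and the usual NRF2 reporter gene, was at 15.6, 20.8 and 29.0 FPKM in OP mice and 26.7, 26.5 and 29.9 FPKM in OR mice, with a log2 fold change of -0.37 (standard error 0.22). OP mouse 3 lay within its OR range. Of 5 AHR targets only *Nqo1* and *Tiparp* were tested, both negative with a median of -0.34, and the groups did not overlap in *Tiparp*.

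Among 13 other conjugation enzymes tested, 11 were negative and 2 positive, with a median of -0.24, and 2 had an unadjusted limma-trend p below 0.05. *Inmt*, an indolethylamine N-methyltransferase, was at 2.15, 0.68 and 1.83 FPKM in OP mice and 11.4, 7.83 and 7.91 FPKM in OR mice. Every OP mouse was far below every OR mouse, with a log2 fold change of -2.01 (standard error 0.29, unadjusted p = 0.000169 and q-value 0.507 by limma-trend). *Nat2*, an arylamine N-acetyltransferase, was at 37.9, 27.7 and 29.3 FPKM in OP mice and 20.5, 27.5 and 17.8 FPKM in OR mice, a log2 fold change of 0.52 (standard error 0.20, unadjusted p = 0.0349 and q-value 0.945 by limma-trend). Its groups did not overlap, but OP mouse 2 and OR mouse 2 were almost level.

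Markers of other cell types were also examined. Their counts are to be read beside all genes tested, of which 70.1% had a negative estimate. By an unadjusted limma-trend p below 0.05, 3.53% of all genes were lower and 0.503% higher in OP mice. All 8 fibroblast markers tested had negative estimates with a median of -0.74, and 7 had an unadjusted limma-trend p below 0.05. Their summed level was 127 to 200.2 FPKM in OP mice and 287 to 434 FPKM in OR mice. The 6 blood endothelial markers (median -0.80, summed level 9.95 to 16.2 FPKM in OP mice and 19.0 to 33.0 FPKM in OR mice) and the 6 macrophage markers (median -0.94, 31.8 to 87.1 FPKM in OP mice and 92.8 to 123.4 FPKM in OR mice) were negative without exception, each with an unadjusted p below 0.05 by limma-trend. With median-of-ratios scaling the fibroblast, endothelial and macrophage medians were -0.61, -0.72 and -0.84, respectively. In all 3 lists the summed OP values lay below the summed OR values. Among single genes, 6.81% of all tested had all OP values below all OR values.

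Markers of the colon epithelium as a whole did not separate the groups. Of 12 colon epithelial markers 9 estimates were positive, with a median of 0.07 and summed levels of 11430 to 14840 FPKM in OP mice and 11340 to 14130 FPKM in OR mice. The 8 colonocyte markers had a median of 0.41 (7 positive, and *Car1* alone negative at -0.94). The 6 goblet markers had a median of -1.17 (6 negative, *Tff3* with an unadjusted limma-trend p below 0.05), which was -0.43 at the least extreme when single mice were left out. The 6 smooth muscle markers (median -0.35) and 5 of the 6 adipocyte markers (median -0.55) were negative with 0 unadjusted p-values below 0.05. The 5 small intestine enterocyte markers tested had a median of 0.21 (3 positive and 2 negative, *Mep1b* positive at 0.53 with an unadjusted limma-trend p of 0.0387). The 3 hepatocyte markers tested had a median of 0.41. The part of any of these cell types in the differences of *Mgst1*, *Ugt1a6a* and *Inmt* was not tested.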

How the data were processed

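Colon RNA of 3 OP and 3 OR mice was analysed, grouped by the phenotype in the labels. The methods describe stranded libraries of enriched mRNA on a DNBSEQ instrument, SOAPnuke read filtering, Bowtie2 alignment to a GRCm39 gene set and RSEM quantification. The labels describe the gene set otherwise, and their processing notes also name HISAT2 2.0.4. The values deposited by the authors are FPKM to 2 decimals, with no counts and no comparison columns. Depth and counting error are therefore unknown, and DESeq2, the authors' tool, could not be applied.

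A gene was tested if its FPKM reached 0.5 in 3 or more mice. The difference of log2(FPKM + 1) between OP and OR was estimated by limma-trend with no covariate (R 4.3.3, limma 3.58.1), and q-values followed Benjamini-Hochberg over all 13520 genes. A fold change on this scale understates changes of low genes. Two-sided exact permutation tests of mean FPKM were added for sums and single genes, whose smallest p for 3 against 3 is 0.1. Alternatives were other scalings, pseudocount, filters, variance models, a replicate block and leaving out each mouse.

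The members, the gene lists and the tests were chosen with earlier results of these data known. Members are named with all values if they had an unadjusted p below 0.05 or non-overlapping groups at a mean of at least 1 FPKM, were among the 3 highest in their family, or had the extreme fold change of their family. From the lists of cosubstrates, transporters, regulators, targets and other conjugation enzymes, genes with an unadjusted p below 0.05 are named. *Nqo1*, *Ugdh*, *Papss2*, *Gclc* and *Nfe2l2* are named in any case. Cell type markers are given by counts and medians, and of these only *Tff3* and *Mep1b* are named for such a p. *Gsta4*, *Gstm3*, *Sult5a1*, *Sult1e1*, *Ugt1a2*, *Ugt2b35*, *Ugt2b38*, *Tiparp* and *Mep1b* are mentioned after their values were seen. *Muc2*, *Car1*, *Aqp8*, *Epcam*, *Cdx2* and the hepatocyte genes describe the libraries. Shared stretches were counted as 50-base words between GENCODE vM21 transcripts, with a single protein-coding transcript for each gene. Promoters came from RefSeq. Both are of GRCm38, which is not the build of the authors, so no value was assigned by coordinates (Python 3.11.15, pandas 2.3.3).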

Additional observations from a re-analysis of the deposited data

How the results depend on the processing

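The count of members passing a q-value below 0.2 was 0 under every alternative run (limma-trend or limma without trend, median-of-ratios scaling, TPM rescaling, no filter, a filter of 1 FPKM in all 6 mice, a pseudocount of 0.1, sample weights, the replicate block and each mouse left out). The median log2 fold change of the members stayed negative throughout, between -0.30 and -0.07 with single mice left out. By an unadjusted limma-trend p below 0.05, the members lower in OP mice numbered 2 in the reported fit, 1 with median-of-ratios scaling, 4 with the replicate block and 1 to 6 with single mice left out (1 without OP mouse 1, without OR mouse 1 or without OR mouse 2, 4 without OP mouse 2, 6 without OP mouse 3). Over all 13520 genes tested, 477 were lower in the reported fit, 421 with median-of-ratios scaling and 409 with the replicate block. That number was 310 without OP mouse 1, 612 without OP mouse 2 and 1104 without OP mouse 3. It was 288 without OR mouse 1, 527 without OR mouse 2 and 231 without OR mouse 3. Members higher by that rule numbered 0, 1 with the replicate block and 0 to 1 with single mice left out. Over all genes tested these numbers were 68, 66 and 24 to 181, respectively. Members lower without overlap numbered 2, 1 with median-of-ratios scaling and 2 to 8 with single mice left out, and members higher without overlap 0 and 0 to 2. In the reported fit, 6.81% of all genes tested were lower without overlap and 1.63% higher. With fewer mice per group, separation is easier by construction, and otherwise the cause was not tested.

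Without OR mouse 1 neither *Mgst1* nor *Ugt1a6a* had an unadjusted p below 0.05, and the member that did was *Gsta1*. Among the members named with all values, estimates not past the threshold changed sign in 6 when single mice were left out. The ranges were -0.264 to 0.353 in *Gstk1*, -0.293 to 0.0211 in *Gsto1* and -0.0857 to 0.144 in *Mgst2*. They were -0.0401 to 0.181 in *Mgst3*, -0.995 to 0.125 in *Ugt1a1* and -0.211 to 0.117 in *Ugt2b34*. Other members also changed sign, such as *Gstm3* (-0.299 to 0.151) and *Ugt2b35* (-0.457 to 0.207). With sample weights *Gstk1* turned to -0.0218 and *Mgst2* to -0.015, and with median-of-ratios scaling *Ugt2b34* turned to 0.0565. The unadjusted limma-trend p of *Ugt1a6b* was 0.0322 with the replicate block, 9.2e-05 without OP mouse 2, 0.307 without OP mouse 1, 0.268 without OP mouse 3 and 0.299 with sample weights. That of *Ugt2b5* was 0.0375 with sample weights, 0.0486 with the replicate block and 0.374 without OP mouse 2. The replicate numbers did not pair the mice: deviations of same-numbered mice correlated at -0.14, -0.16 and 0.07, and those of other pairs at -0.46 to 0.54, so a number is only a name.

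FPKM carries no read totals, so the error of a value below 1 FPKM is unknown. With 3 mice per group the median standard error was 0.26, 36 of the 38 intervals covered 0 and only 25 lay entirely between -1 and 1. Differences larger than 0.5 on the log2 scale are therefore also left undetermined in many members. Reads shared within *Ugt1a*, *Gstp* and *Gsta* make single values there uncertain.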
